A study of Aedes aegypti with 5 samples.

Results

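Saliva of the mosquito Aedes aegypti holds inhibitors of proteases beside its enzymes, and the gland array carries a small group of probes for them. The group was taken as the gene probes whose description names a serpin, a Kazal or Kunitz peptide, a cystatin, a TIL domain, an anticoagulant, factor Xa or a protease inhibitor. This gave 5 of 433 gene probes. They were the serpin AF466599, the salivary serpin AET-7393, the FXa-directed anticoagulant precursor AF050133, the Kazal-containing peptide AET-1428 and the cystatin AE-746. A further probe, AE-114, is described as similar to an FXa-directed anticlotting protein. It was not matched by these words and is given only beside the serpins.

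The study asked how gland transcripts change after a blood meal. RNA came from salivary glands of female Aedes aegypti of the Higgs white eye strain, all of the same age and starved, none with an earlier blood meal, and the fed females engorged on a BALB/c mouse. Glands were taken from unfed females and from fed ones after 1, 3, 24 and 48 h, written below as hpf for hours post-feeding, and all groups shared the strain. Each of the 5 groups was 1 RNA pool hybridized to 3 nylon arrays with biotin-labelled cRNA. The 3 arrays are therefore technical replicates, and a test compares pools and takes no account of variation between mosquitoes. In whole glands fewer cells of a type and less RNA per cell cannot be told apart.

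Serpins are protein inhibitors that present a loop as bait to a serine protease and trap the enzyme covalently when it cuts the loop. The FXa-directed anticoagulant of Aedes aegypti is itself a serpin, secreted in saliva, which blocks factor Xa of the host's clotting cascade and so keeps blood fluid at the bite. Kazal domains are small disulphide-bonded folds that block serine proteases without being consumed, and in the blood-sucking bug Rhodnius a Kazal protein inhibits thrombin. Cystatins act on another class, the cysteine proteases of the papain type such as cathepsins. No sequence of the 5 probes was in the tables used here, and none is printed.

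The values are normalized intensities, in which the mean of 22 empty spots was subtracted from each spot and the result divided by the same difference for a pair of reference spots, actin and ribosomal protein S5. A spot more than 2 SD brighter than the mean of the empty spots counted as above them, and one of 60000 or more as saturated. Signal above the empty spots was seen for 121 to 162 probes per array, of which 33 to 64 were saturated. The value of the reference pair averaged 40298 in unfed glands and 26348, 31048, 27471 and 25685 at 1, 3, 24 and 48 hpf. A spot at the ceiling thus gains a higher normalized intensity after feeding. Actin gave 14.1%, 23.2% and 38.9% of the pair on the unfed arrays and 1.76%, 1.56% and 5.90% at 48 hpf. The S5 spot was itself at the ceiling on several arrays, as on unfed replicates 2 and 3 with 64382 and 64191. Every normalized ratio to unfed carries these shifts of the reference. Of 14 salivary gland marker probes 12 were above the empty spots on every array, while the 1 muscle probe (AE-377) was above them on none. The sum of the gland markers ran from 14.3 to 20.3 on unfed arrays and from 20.9 to 33.1 on arrays of fed glands, with 7 of the 14 saturated on every array, and its part in the results below was not tested. No probe for fat body, midgut or hemocyte markers was found on the array.

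The Kazal peptide AET-1428 was brightest in unfed glands and dimmer after feeding. Its normalized intensity on the unfed arrays was 0.212, 0.210 and 0.456 for replicates 1, 2 and 3. At 1 hpf it was 0.129, 0.106 and 0.235. At 3 hpf it was 0.119, 0.0647 and 0.169. Every fed array lay below the unfed array of the same number, and at 3 hpf all arrays lay below all unfed ones. At 24 hpf the values were 0.0488, 0.0356 and 0.111. At 48 hpf they were 0.0144, -0.000226 and 0.0393, the second of which is at the level of the empty spots. The arrays at 24 and 48 hpf did not overlap with the unfed arrays either, and replicate 3 was the brightest in all 5 groups.

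In group means AET-1428 went from 0.293 ± 0.141 (SD, n = 3) in unfed glands to 0.156 ± 0.0692 at 1 hpf and 0.118 ± 0.0523 at 3 hpf. It stood at 0.0650 ± 0.0400 at 24 hpf and 0.0178 ± 0.0200 at 48 hpf. The ratio to unfed was 0.535, 0.402, 0.222 and 0.0609 at the 4 times. The probe was above the empty spots on 3 unfed arrays, on 1 array each at 1 and 3 hpf, and on 0 arrays at 24 and 48 hpf. Since the late arrays give no level above the empty spots, the fold there is a bound. The bound was at least 3.52-fold lower at 24 hpf. That of 48 hpf was at least 2.73-fold lower, where the unfed mean was set against the lowest value that still counted as signal on each dim array, or the probe's own if that was higher. The ratio of 0.0609 is therefore no measured size. The bounds here and below use the mean of the unfed log2 values. They take no account of the spread between arrays and are not limits of confidence.

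In the test all values under 0.1077, the common floor, were set to it, and their log2 was modelled with limma over all 5 groups, with p-values adjusted over 432 probes. The log2 difference of AET-1428 from unfed was -0.88, -1.08, -1.33 and -1.34 at 1, 3, 24 and 48 hpf, each with a standard error of 0.33. Every array at 48 hpf, replicates 1 and 2 at 24 hpf and replicate 2 at 1 and 3 hpf were set to the floor. The late differences are thus nearly those of the unfed arrays from the floor, and most of the spread among the late arrays is removed. The adjusted p by limma was 0.241, 0.227, 0.109 and 0.0894, so that none passed the threshold of 0.05. With the replicate number as a block, which the arrays bear out since same-numbered arrays deviated together, the adjusted p by limma was 0.0211, 0.0148, 0.00340 and 0.00162. With the highest limit of any array, 0.242, as the floor and no block, the log2 difference was -0.30 at each time. In the fit with the block the Kazal peptide fell at each of the 4 times, all of them measured against the same unfed arrays. Lower calls with the block covered 3.01%, 4.17%, 6.25% and 7.64% of the 432 probes at 1, 3, 24 and 48 hpf. Without the block they covered 0.231%, 0.231%, 0% and 0%. Only 214 of the 432 probes varied above the floor, and the others could not be called. This holds for the limma shares given below as well.

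The spots of AET-1428 were also set against the local background recorded for each of them, which the normalized intensity does not use. The spot was 1.62, 2.75 and 3.13 times its local background on the unfed arrays. At 1 hpf the same quotient was 1.06, 1.51 and 1.86, and at 48 hpf it was 0.999, 1.02 and 1.02. The spot thus stood out from its surroundings most in unfed glands and was about level with them at 48 hpf. The mean local background itself was 6240 ± 2247 (SD, n = 3) in unfed glands and 3726 ± 600 at 48 hpf.

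**Figure D1:**
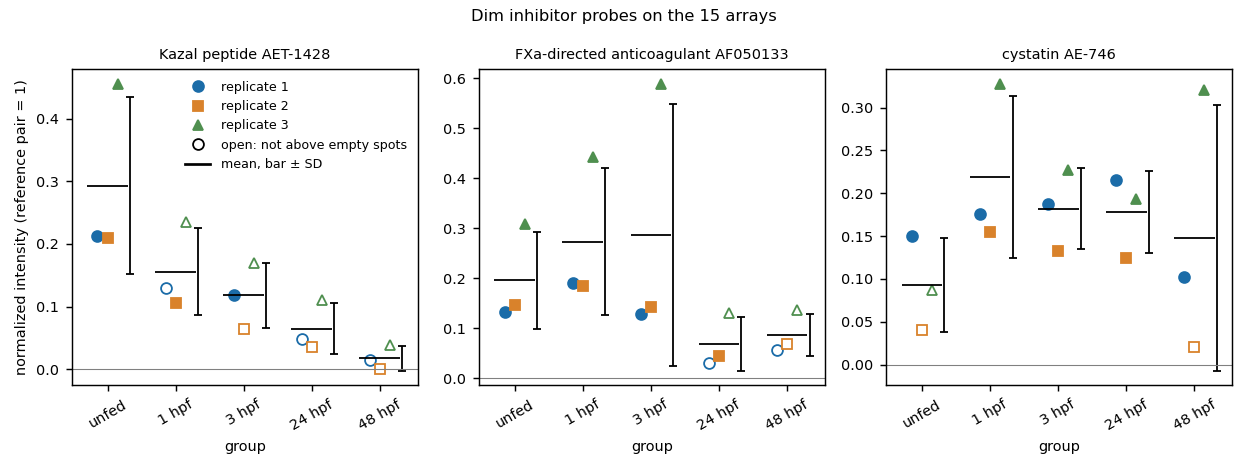
Normalized intensity (y axis, reference pair = 1) of the 3 probes that were never saturated, on each of the 15 arrays by group (x axis), with open symbols for arrays not above the empty spots, a line for the mean and a bar for ± SD. The Kazal peptide goes from 0.293 in unfed glands to 0.0178 at 48 hpf, the FXa-directed anticoagulant is lowest at 24 and 48 hpf, and replicate 3 is the highest array of both in every group.

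The FXa-directed anticoagulant AF050133 showed its lowest values at 24 and 48 hpf. On the unfed arrays it was 0.133, 0.147 and 0.308. At 1 hpf it was 0.191, 0.185 and 0.443, above the same-numbered unfed array in each case. At 3 hpf it was 0.128, 0.142 and 0.589, with replicates 1 and 2 just below their unfed arrays and replicate 3 well above. At 24 hpf the values were 0.0319, 0.0454 and 0.131, and all 3 lay below every unfed array. At 48 hpf they were 0.0577, 0.0681 and 0.136, each below its same-numbered unfed array, with replicate 3 above unfed replicate 1. The arrays above the empty spots numbered 3, 3, 3, 1 and 0 in unfed glands and at 1, 3, 24 and 48 hpf.

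Its group means were 0.196 ± 0.0975 (SD, n = 3) unfed, followed by 0.273 ± 0.147, 0.286 ± 0.262, 0.0695 ± 0.0538 and 0.0871 ± 0.0423 after 1, 3, 24 and 48 h. The ratios to unfed were 1.39, 1.46, 0.354 and 0.444. By the bound the probe was at least 1.82-fold lower at 48 hpf, a larger step than the fitted log2 difference gives. None of the 4 times passed limma. The log2 differences were 0.46, 0.28, -0.66 and -0.65 with a standard error of 0.55, and the adjusted p was 1.00 at each time. With the replicate block the adjusted p by limma was 0.612, 1.00, 0.289 and 0.311, so the block changed no call.

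Replicate 3 carried much of the level of AF050133. It was the highest array in all 5 groups. The local background around the spot was highest on replicate 3 as well, as it was for every inhibitor probe. A normalized intensity highest on replicate 3 in all 5 groups was found for 102 probes, 23.6% of the array. The deposited group average of this probe leaves replicate 3 out in all 5 groups. Its deposited ratios to unfed, 1.39, 1.46, 0.350 and 0.440, follow the means of all 3 arrays instead. A deposited average off the mean of the 3 arrays in at least 1 group was found for 1 of the 5 inhibitor probes, this one, and for 5 probes of the array. Without replicate 3 the ratios were 1.34, 0.965, 0.276 and 0.449, so that the value at 3 hpf turned from above to below unfed. The spot was brighter than its local background on 11 of 15 arrays and on 0 of 3 at 24 hpf, where the quotient ran from 0.760 to 0.954.

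The cystatin AE-746 had a higher mean than in unfed glands at all 4 times, a difference that passed no test. On the unfed arrays it was 0.150, 0.0404 and 0.0875. At 1 hpf it was 0.176, 0.155 and 0.328, all above the highest unfed array. At 3 hpf the values were 0.187, 0.133 and 0.227. Those at 24 hpf were 0.216, 0.124 and 0.193, so that at both times each array lay above the unfed array of its number while replicate 2 lay below unfed replicate 1. At 48 hpf they were 0.102, 0.0204 and 0.321, with replicates 1 and 2 below and replicate 3 above their unfed arrays.

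The group means of AE-746 were 0.0926 ± 0.0549 (SD, n = 3) in unfed glands, then 0.219 ± 0.0942, 0.182 ± 0.0474, 0.178 ± 0.0479 and 0.148 ± 0.155 at 1, 3, 24 and 48 hpf. The probe was above the empty spots on 1 unfed array and on 3, 3, 3 and 2 arrays at these times. The ratios were 2.37, 1.97, 1.92 and 1.60, over an unfed mean that rests mostly on arrays not above the empty spots. The log2 differences of 0.79, 0.57, 0.52 and 0.37, each with a standard error of 0.43, had adjusted p-values by limma of 0.531, 0.885, 1.00 and 1.00. With the replicate block they were 0.147, 0.398, 0.479 and 0.819. No time passed in either fit, and only the arrays of 1 hpf were clear of the unfed ones.

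All 15 spots of the cystatin were dimmer than their own local background, at 0.294 to 0.812 of it, although 12 of them were above the empty spots. At 24 hpf the quotients were 0.529, 0.425 and 0.294, the last of which was the lowest of the 15. The mean local background there was 20768 ± 9364 (SD, n = 3) against 12046 ± 4865 in unfed glands, so that it moved the same way as the spot. Of the array's gene probes 30, or 6.93%, were at or below the local background on every array. The part of the surrounding signal in the cystatin values was not tested. An alternative took the local background off with limma's normexp model, which keeps values positive, and set no floor. There the log2 difference at 24 hpf was -0.96 (adjusted p by limma 0.896). Since every spot was dimmer than its local background, that value depends on the model and is no measured fall.

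**Figure D2:**
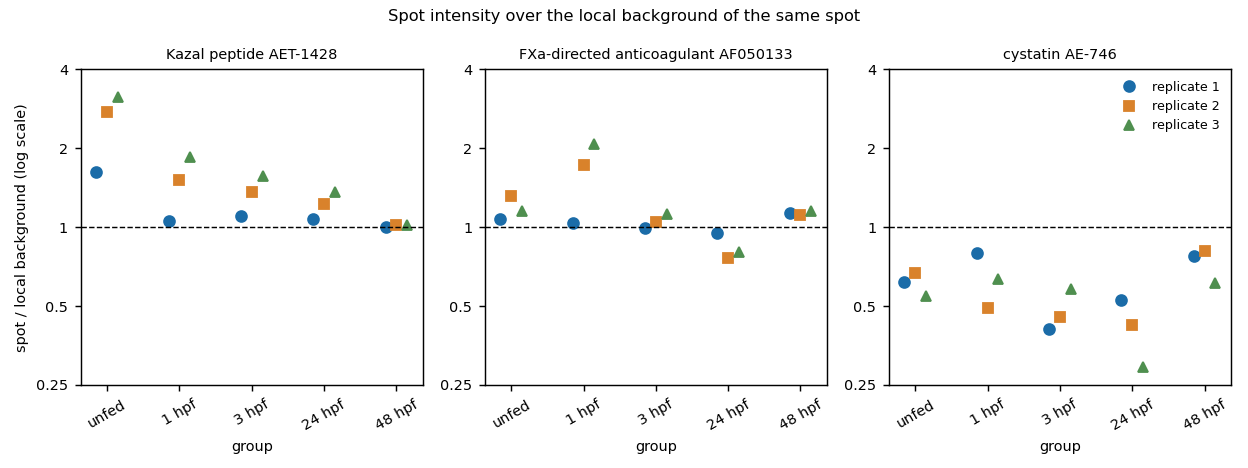
Spot intensity divided by the local background of the same spot (y axis, log scale) for the 3 probes on each array by group (x axis), with a dashed line where both are equal. The Kazal peptide goes from 1.62 to 3.13 in unfed glands to 0.999 to 1.02 at 48 hpf, and every cystatin spot lies below 1.

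The serpins were among the brightest spots of the array, and their folds could not be measured. AF466599 was saturated on 12 of 15 arrays and AET-7393 on 14, and both on every unfed array. The spot intensity of AF466599 was 64930, 65034 and 64191 on the unfed arrays. At 24 hpf it was 50508, 61088 and 62417, and at 48 hpf it was 43964, 54955 and 63114. Replicate 1 at 24 hpf and replicates 1 and 2 at 48 hpf thus fell clear of the ceiling, while every array at 1 and 3 hpf stayed at it. AET-7393 left the ceiling only on replicate 1 at 48 hpf, with 50294 against 62847 and 63774 on the other arrays of that time.

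After division by the reference pair the same spots read the other way. Normalized AF466599 was 1.92, 1.55 and 1.22 on the unfed arrays and 2.18, 1.89 and 1.93 at 48 hpf. Its ratios to unfed were 1.59, 1.25, 1.29 and 1.28 at 1, 3, 24 and 48 hpf, and those of AET-7393 were 1.59, 1.28, 1.47 and 1.41. AET-7393 was 1.91, 1.55 and 1.23 on unfed arrays, 2.78, 2.20 and 1.94 at 24 hpf and 2.52, 2.18 and 1.95 at 48 hpf, both just clear of the unfed arrays. Replicate 1 had the highest normalized value of AET-7393 in each group and the lowest reference value. With no reference, the log2 difference at 48 hpf was -0.29 for AF466599 and -0.15 for AET-7393.

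By limma the adjusted p of AF466599 was 0.241, 0.855, 0.619 and 0.651, and that of AET-7393 was 0.241, 0.855, 0.401 and 0.386. With the replicate block 5 of the 8 serpin tests passed as higher, AET-7393 at all 4 times and AF466599 at 1 hpf. Such calls covered 15.5%, 13.9%, 12.5% and 11.1% of the 432 probes at 1, 3, 24 and 48 hpf. They rest on saturated spots and give no direction for the transcripts. The related probe AE-114 showed the same: it was saturated on 9 of 15 arrays, its spot was 40406, 58088 and 59684 at 48 hpf against 63448, 64902 and 64147 unfed, and its normalized ratio was 1.25.

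**Figure D3:**
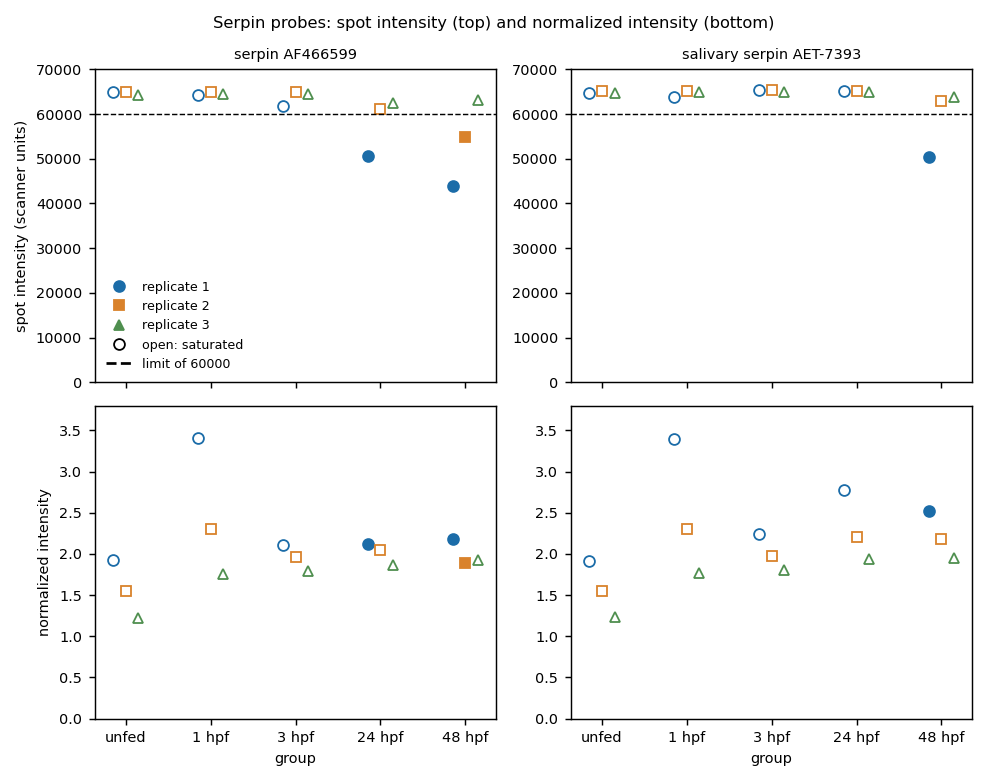
Spot intensity (upper panels, scanner units) and normalized intensity (lower panels) of the serpin probes AF466599 and AET-7393 on each array by group (x axis), with open symbols for saturated arrays and a dashed line at 60000. The spots of 48 hpf reach down to 43964 while the normalized values of fed arrays lie mostly above the unfed ones.

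Counted over the 5 probes and 4 times, 20 comparisons, the ratio of means was at least 2 in 1 and at most 0.5 in 5. At 1 hpf 1 of 5, the cystatin, was at least 2 over its dim unfed mean, against 4.85% of the 433 probes, and 0 of 5 were at most 0.5, against 9.24%. At 3 hpf 1 of 5, the Kazal peptide, was at most 0.5 against 8.55%, and 0 of 5 were at least 2 against 12.5%. At 24 hpf the Kazal peptide and the FXa-directed anticoagulant were at most 0.5, 2 of 5 against 16.9%, and at 48 hpf the same probes, 2 of 5 against 21.7%. None was at least 2 at 24 or 48 hpf, where 5.77% and 3.00% of all probes were. Of the 433 probes 243 were above the empty spots on no array. The shares here, and those of arrays that did not overlap, thus include many spots near the background.

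Arrays that did not overlap with the unfed ones, below them, were found for the Kazal peptide at 3 hpf, where 2.54% of all probes showed this. At 24 hpf they were found for the Kazal peptide and the anticoagulant, against 10.9%, at 48 hpf for the Kazal peptide, against 13.6%, and at 1 hpf for 0 of 5, against 6.47%. Above the unfed arrays stood the cystatin at 1 hpf, against 4.85%, and the saturated AET-7393 at 24 and 48 hpf, against 11.1% and 12.9%. At 3 hpf 0 of 5 stood above, against 5.54%.

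Of the 20 tests 0 passed limma as higher and 0 as lower. Higher calls covered 0.926% of all probes at 1, 3 and 24 hpf and 0.231% at 48 hpf. At an unadjusted p below 0.05 limma gave 3 higher, all serpin tests at the ceiling, where 15.3%, 3.47%, 4.40% and 11.1% of all probes were higher at 1, 3, 24 and 48 hpf. It gave 4 lower, all of the Kazal peptide, where 0.926%, 1.85%, 3.47% and 2.31% were lower. With the block 5 were higher and 4 lower after adjustment, where higher calls covered 11.1% to 15.5% of all probes over the 4 times and lower calls 3.01% to 7.64%.

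From the fitted log2 differences, the median ratio of the 3 probes below the ceiling was 1.37, 1.21, 0.632 and 0.639 at 1, 3, 24 and 48 hpf. At each time this median was the value of the anticoagulant, with the Kazal peptide below it and the cystatin above. It is thus the value of 1 probe, which passed neither fit. The 31 probes above the empty spots on every array and never saturated had medians of 1.22, 1.06, 0.728 and 0.767. All 432 probes had a median of 1.00 since most were at the floor. Relative to the median of probes above the empty spots, the Kazal peptide had log2 differences of -1.24, -1.41, -1.64 and -1.64. The anticoagulant then stood at -0.02 and -0.11 at 1 and 3 hpf, on the other side of unfed.

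**Figure D4:**
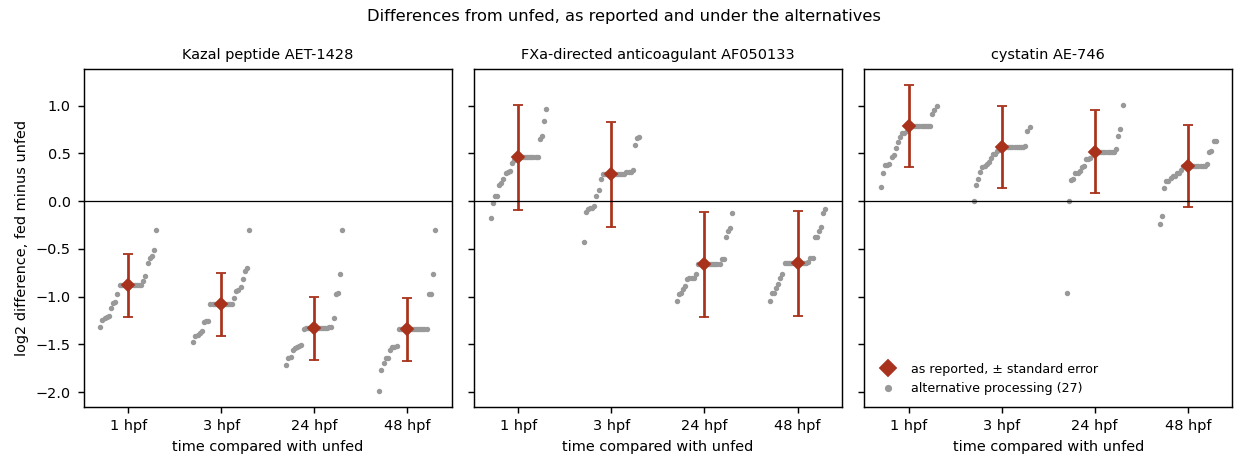
Log2 difference of each fed time from unfed (y axis) for the 3 probes below the ceiling by time (x axis), as reported with ± standard error (red) and under each of 27 alternative ways of processing (grey). All Kazal points lie below 0 at each time, while points of the anticoagulant at 1 and 3 hpf and of the cystatin at 3, 24 and 48 hpf fall on both sides of 0 or on it. Some alternatives, such as the replicate block, could not change the estimate and repeat it.

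The fed times were also compared with each other. For the Kazal peptide each later time was below each earlier one on 3 of 3 same-numbered arrays, and the arrays of 48 hpf lay below all arrays of 1 and of 3 hpf. Most of these fed arrays were not above the empty spots. The share of all probes with such an order between fed times was not counted, so it is no result particular to the peptide. After the floor was set, the log2 difference was -0.46 (standard error 0.33) from 1 to 48 hpf, with an adjusted p by limma of 1.00, or 0.396 with the block. In order of level the Kazal probe ran unfed, 1 and 3 hpf, then 24 and 48 hpf, which have no order since neither was above the empty spots on any array. By limma no neighbours in that order differed, or only unfed and 1 hpf with the block. For the anticoagulant the largest contrast was 24 against 1 hpf, with a log2 difference of -1.12 (standard error 0.55) and an adjusted p by limma of 0.812, or 0.0644 with the block. At 48 against 1 hpf it was at least 2.50-fold lower with a log2 difference of -1.11 and 0.680, or 0.0654 with the block. Of all 30 tests between fed times over the 3 dim probes and the 2 serpins 0 passed limma in either fit. An unadjusted p below 0.05 was given to 0 without the block and to 5 with it. The share of all probes at that limit was not counted, so the 5 are no result particular to the members.

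Arrays on which other probes followed the members are given as a description over the same 15 arrays, which share libraries and scaling. Among 83 probes with enough signal, the Kazal peptide was most like a probe similar to a reverse transcriptase (AET-432, Pearson r = 0.855), a possible mucin (AE-922, 0.841) and the chaperone hsc70 (AET-2544, 0.816). The anticoagulant was most like the Ac45 accessory subunit of the vacuolar ATPase (AE-4139, 0.900), a probe similar to a lysosomal thiol reductase (AET-330, 0.886) and a translation initiation factor subunit (AET-545, 0.836). The cystatin was most like a proline rich mucin (AE-262, 0.853), an unknown protein with PM repeats (AET-621, 0.847) and a D7 allele (AE-182, 0.744), the D7 proteins being salivary binders of host amines. The serpins had no r above 0.505 with any of the 83 probes. Probes saturated on most arrays, such as AE-114, and the members themselves were left out of the 83. The likeness of the serpins to such probes, or to each other, was thus not computed. Among the members, r was 0.603 between the anticoagulant and the Kazal peptide, 0.388 between the anticoagulant and the cystatin and -0.103 between the Kazal peptide and the cystatin.

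The array also holds 8 serine protease probes, the class of enzyme that serpins and Kazal peptides act on. Without the block 0 of 8 passed limma at any time. With it 3, 2, 3 and 1 passed as higher at 1, 3, 24 and 48 hpf and 1, 2, 1 and 2 as lower. Over all 432 probes these calls covered 15.5%, 13.9%, 12.5% and 11.1% as higher and 3.01%, 4.17%, 6.25% and 7.64% as lower. The serine protease AEA-562 went the way of the Kazal peptide, from 0.248 ± 0.147 (SD, n = 3) in unfed glands to 0.0706 ± 0.0306 at 24 hpf, at least 2.88-fold lower, with an adjusted p by limma of 0.152, or 0.0102 with the block. It was above the empty spots on 3 unfed arrays and on 0 fed arrays. The large trypsin AEA-876 went from 0.410 ± 0.198 to 0.187 ± 0.165 at 48 hpf (adjusted p by limma 0.675, or 0.00146 with the block).

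Another serine protease, AE-782, was higher on 3 of 3 same-numbered arrays at 1, 3 and 24 hpf. Its ratio was 2.53 at 24 hpf, from 0.264 ± 0.116 (SD, n = 3) to 0.668 ± 0.303, with an adjusted p by limma of 0.401, or 0.00155 with the block. The putative serine protease AF466600 had a ratio of 1.74 at 24 hpf (adjusted p by limma 0.152, or 0.0217 with the block) and was saturated on 11 of 15 arrays. The trypsin-like secreted protein AE-191 was saturated on all 15, so its passing with the block at each time gives no fold. Of the 2 other peptidase probes, carboxypeptidase B (AY590494) was lower at 24 hpf, with a ratio of 0.392 and an adjusted p by limma of 0.152, or 0.00826 with the block, and the CAAX metalloprotease (AET-6561) was above the empty spots on no array.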

How the data were processed

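Each array was hybridized with amplified, biotin-labelled cRNA of 1 gland pool. The authors deposited the intensity of each spot with its local background, and a report of normalized intensity per spot. The normalized values were recomputed from the spots within 0.000129, with positions 411 (actin) and 424 (S5) as reference, while the methods name RpL5. The deposited series matrix holds a score per probe, the ratio of group means to unfed, and was used as a check. Lists of the authors' fold changes and p-values were not used. The number of arrays limits the precision.

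Normalized values were floored at 0.1077, taken to log2 and fitted with limma 3.58.1 in R 4.3.3 over 5 groups and 432 probes, with S5 left out and Benjamini-Hochberg adjustment. Probes at the floor on every array were left out of the variance estimate and counted as not passing. Same-numbered arrays deviated together (30 pairs, correlations of 0.352 to 0.809 over 214 probes), so the block was also fitted. Alternatives covered the reference, floor, background and each array left out. The code was tested on simulated data. Every probe matching the words was named, serine proteases only where they passed either fit and all arrays of the brighter group had signal, and the 3 most similar probes by r. The members and lists were chosen with earlier results of these data known.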

Additional observations from a re-analysis of the deposited data

How the results depend on the processing

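The direction of the Kazal peptide held under all 27 alternatives at each of the 4 times. Leaving out an array of another fed time, the block and detected probes only keep the estimate as it was, so they could not change it. With 1 array left out the log2 differences were -0.51 to -1.21, -0.70 to -1.27, -0.96 to -1.52 and -0.97 to -1.53 at 1, 3, 24 and 48 hpf. Under the other alternatives they ran from -0.30, with the highest limit as floor at each time, to -1.99. The latter came from the local background model at 48 hpf, where the spots were about level with that background. The Kazal peptide passed limma in 3, 3, 5 and 5 of the 27 alternatives, with adjusted p-values of 1.68e-06 to 0.824 at 24 hpf and 1.68e-06 to 0.781 at 48 hpf. The replicate block gave 5 higher and 4 lower of the 20 tests and changed no call of the anticoagulant or the cystatin. Quantile normalization gave 2 higher, both the saturated AET-7393, and 5 lower, the Kazal peptide at each time and AF050133 at 24 hpf (adjusted p by limma 0.0248). A pseudocount gave 1 lower, detected probes only gave 2, the methods' t-test before adjustment gave 1, and leaving replicate 3 out of every group, chosen after seeing the data, gave 4 lower and 0 ratios of at least 2. For all settings but the main fit and the block, the share of all probes called was not counted. Counts under those settings, here and in the next paragraph, are thus no result particular to the inhibitors.

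With 1 array left out the tests passing as lower numbered 0 to 1, ratios of at least 2 numbered 0 to 4 and ratios of at most 0.5 numbered 3 to 6. The single lower call came without 1 hpf replicate 3. Ratios of at least 2 numbered 4 when unfed replicate 1 was left out, 2 each for unfed replicate 3 and for replicate 2 of 3, 24 or 48 hpf, and 0 each for unfed replicate 2 and 1 hpf replicate 3. Ratios of at most 0.5 numbered 3 without unfed replicate 3. Ratios of at least 2 numbered 0 with the median of probes above the empty spots, the ribosomal probes or no reference.

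The anticoagulant reversed at 1 hpf with the median reference (-0.02) and no reference (-0.18). At 3 hpf it reversed with S5 alone (-0.07), the median (-0.11), the ribosomal probes (-0.07), no reference (-0.08), without 3 hpf replicate 3 (-0.43) and without replicate 3 of every group (-0.05). The cystatin reached 0.00 at 3 hpf and -0.00 at 24 hpf with the highest limit as floor. It reversed at 24 hpf with the local background model (-0.96), whose value rests on spots dimmer than that background. At 48 hpf it reversed without 48 hpf replicate 3 (-0.16) and without replicate 3 of every group (-0.24). With 1 array left out the anticoagulant ran from -0.43 to 0.67 at 3 hpf and the cystatin from -0.16 to 0.63 at 48 hpf. The cause was not tested. The height of the empty spots limits the dim probes and the ceiling the serpins.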
